A study of Mus musculus with 3 samples.

Results

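Ttk, Bub1, Bub1b, Mad2l1, Cdc20, Aurka, Plk1, Aurkb, Birc5 and Incenp encode the spindle checkpoint, its target, and the kinases and partners that drive and order mitosis. They were chosen by name, as the probes of the scanner files that carry these 10 symbols, and make up 10 of the 24891 genes that could be named on the array. They are read by 19 probes. The samples were CLDE cells, a mouse dental epithelial line from the cervical loop of the incisor, grown in serum-free keratinocyte medium and harvested 72 h after transfection. All 3 samples are of this single line. One array each was hybridised for mock transfection, for a non-targeting control siRNA (siNeg) and for an siRNA duplex against keratin 15 (siKrt15); Lipofectamine RNAiMAX was the reagent, and whether the mock cells received it is not given in the labels. The series title names cell proliferation in the outer enamel epithelium as the subject.

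With 1 array per group, every difference below is between 2 hybridisations, there is no replicate check, and no p-value was computed. The labels contradict each other for 2 arrays, since the description and treatment fields exchange the siNeg and siKrt15 of the titles and source names. The titles were followed, and with the descriptions instead the sign of each siKrt15 to siNeg difference would turn, and the comparisons with mock given below for siKrt15 and siNeg would change places. Krt15 itself had a processed signal of 267 in the array titled siKrt15, 1647 in siNeg and 2638 in mock, so it was lowest in the array titled siKrt15. Spots well above background were 67.3% to 69.2% of non-control spots on the 3 arrays, and no spot was saturated. Of the epithelial markers, 7 of 7 were above background on all arrays, including Krt5, Krt14, Cdh1 and Trp63. Of 11 dental epithelial markers 6 were not above background on any array, among them the enamel matrix genes Ambn, Enam and Amtn and the stem cell marker Lgr5, while Sox2 and Bmi1 were above it on all arrays. The brightest probes of the 8 mesenchymal markers summed to a processed signal of 316 in mock, 272 in siNeg and 247 in siKrt15, with Lum not above background on any array. The list was mixed: against siNeg, after scaling, Postn was higher by 1.94 ± 0.25 and Col1a1 by 0.85 ± 0.22, Dcn was at −1.07 ± 0.20, and the median of the 6 measured was −0.44. The unscaled sums, in that order, were 208305, 209203 and 230338 for the epithelial markers, whose scaled median was −0.11 against siNeg. Most of each sum came from Krt5 and Krt14 (102674 and 81589 in mock). That list was mixed too: against siNeg, after scaling, Cldn1 was at 0.83 ± 0.23 and Epcam at 0.53 ± 0.20. Trp63 was at −0.32 ± 0.21 and Cdh1 at −0.24 ± 0.20. The dental epithelial marker Lrig1 was higher by 0.88 ± 0.21 against siNeg and 1.16 ± 0.21 against mock. Of 3 endothelial markers Cdh5 and Kdr were not above background on any array, while Pecam1 was on all. Of 5 blood and immune markers 4 were above it on all arrays and Adgre1 on none. The sums were 29.7, 18.9 and 23.9 and 2934, 2707 and 2813 for these lists. Most of the latter came from Cd68 (1302 in mock) and 1 Ptprc probe (1217 in mock). A different Ptprc probe read 0.96 in mock and was above background on no array. The part of these markers in the results below was not tested.

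The spindle checkpoint delays anaphase until every chromosome is attached to the spindle. The kinase Ttk (Mps1) starts the signal at unattached kinetochores, Bub1 and Bub1b (BubR1) are recruited there, and Mad2l1 (Mad2) changes fold on its partner Mad1l1 and then holds Cdc20, the activator of the anaphase-promoting complex, inactive. Aurka and Plk1 act in centrosome maturation, spindle assembly and mitotic entry. Aurkb works in the chromosomal passenger complex with the scaffold Incenp and with Birc5 (survivin), and corrects faulty attachments. Many genes of this kind are transcribed mainly from G2 into mitosis, through promoters with a cell cycle gene homology region (CHR), where the DREAM and MuvB complexes bind, and with CCAAT boxes bound by NF-Y.

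Promoter sequence was at hand for 8 of the 10 genes, from RefSeq on GRCm38.p6, as 250 bases before to 50 after the annotated start. The promoter set used here held no entry for Aurkb or Incenp. Both strands of each window were searched for 3 motifs. The first was the CHR, with the letters TTTGAA. The next was a variant of it that reads the same on both strands and differs in its middle, searched for as TTCGAA and called the CHR variant. The last was the NF-Y box, for which the letters were CCAAT on either strand, and the matches in these genes do not overlap. The CHR was found in 5 of the 8 (Ttk, Bub1b, Aurka, Plk1 and Cdc20), against 17.9% of 32851 promoter windows in the table. The CHR variant was found in Bub1 and Bub1b, 2 of the 8, against 1.56%. The NF-Y box was found in 6 of 8, against 37.4%, and at least 2 copies were found in 4 of 8, against 11.7%. One or other CHR form together with an NF-Y box was present in 6 of 8, against 7.52% of all windows. These are matches of letters and were not tested as binding sites; in the windows of Mad2l1 and Birc5 none of the 3 was found, which concerns these letters and this window only. The stretches that hold the motifs are shown for 5 genes. Each of these has an NF-Y box upstream of the start and, in all of them but Cdc20, a CHR form after the start. Bub1b also has an NF-Y box upstream and a CHR after the start, but its stretches are not shown. Capitals mark the motifs, which read in reverse complement where the match is on the other strand (the CHR of Ttk and the upstream NF-Y box of Bub1).
Ttk, chr9:83834614-83834703, plus strand: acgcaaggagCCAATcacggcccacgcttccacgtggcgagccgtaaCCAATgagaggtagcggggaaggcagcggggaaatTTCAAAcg
Bub1, chr2:127831838-127831934, minus strand: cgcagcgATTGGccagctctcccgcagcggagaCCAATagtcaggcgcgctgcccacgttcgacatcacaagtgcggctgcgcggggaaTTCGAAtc
Aurka upstream, chr2:172370571-172370645, minus strand: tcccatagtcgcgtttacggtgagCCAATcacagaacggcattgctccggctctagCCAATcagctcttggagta
Aurka CHR, chr2:172370526-172370545, minus strand: gagaaccTTTGAAttgtaac
Plk1 upstream, chr7:122159360-122159434, plus strand: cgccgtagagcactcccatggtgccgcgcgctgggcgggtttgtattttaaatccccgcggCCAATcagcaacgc
Plk1 CHR, chr7:122159458-122159477, plus strand: cgccgcgTTTGAAttcgggg
Cdc20, chr4:118437344-118437418, minus strand: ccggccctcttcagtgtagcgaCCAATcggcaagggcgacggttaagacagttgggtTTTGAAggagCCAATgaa

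In Ttk the NF-Y boxes begin at positions −65 and −28 and the CHR, on the other strand, spans 8 to 13. In Aurka they begin at −51 and −19, with the CHR at 33 to 38, and in Bub1 at −68 (other strand) and −42, with the variant at 15 to 20. Plk1 has a single NF-Y box at −14 and a CHR at 31 to 36. Cdc20 differs in that its CHR, at −18 to −13, lies upstream of the start, between NF-Y boxes at −53 and −8. In Bub1b the CHR lies at 41 to 46, the variant at −188 to −183 and an NF-Y box on the other strand at −113.

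**Figure D1:**
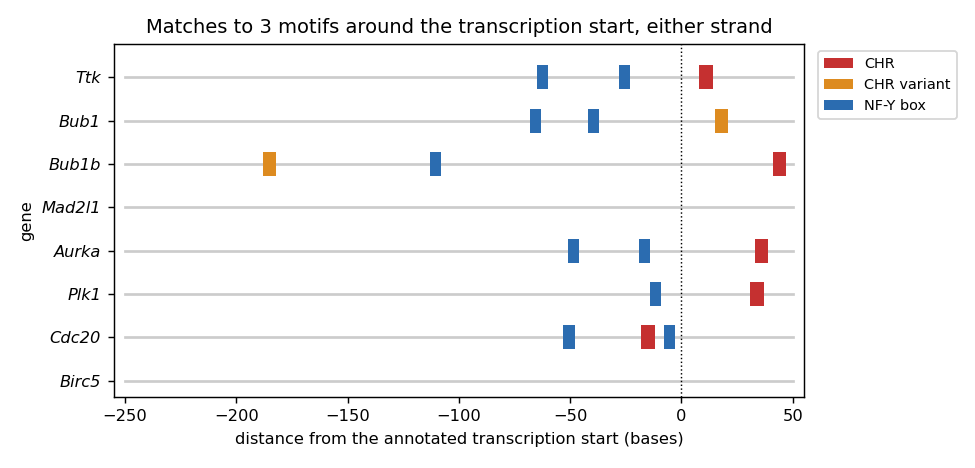
Each line is the promoter window of 1 gene, from 250 bases before to 50 after the annotated start (dotted line), and each block is a match to 1 of the 3 motifs on either strand. In Ttk, Bub1, Aurka and Plk1 the blue NF-Y blocks lie before the start and the CHR form after it, while Mad2l1 and Birc5 show no block. Bub1b has its NF-Y block before the start and a CHR after it, with a CHR variant further upstream.

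The array reads these transcripts through 60-base probes. Of the 19 probes, 15 were well above background on all 3 arrays, 3, all of Ttk, in siKrt15 alone, and 1, a Bub1 probe for ENSMUST00000138624, on none. The median GC content of the 19 was 40.0%, against 41.7% over 56605 probes. Several genes have probes that gave differences of unlike size, and 6 probes are shown, with mm9 coordinates from the files, so that a reader can place them. For Aurkb, Birc5, Cdc20 and Mad2l1 it is the probe with the smaller siKrt15 to siNeg difference, for Incenp the one with the larger, and for Ttk the one with the highest lower bound of the 3 that were above background in siKrt15 only. Whether a probe lies in coding sequence or UTR was not analysed here.
Ttk, chr9:83757059-83757118, plus strand: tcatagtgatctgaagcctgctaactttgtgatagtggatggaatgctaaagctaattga
Aurkb, chr11:68862072-68862131, plus strand: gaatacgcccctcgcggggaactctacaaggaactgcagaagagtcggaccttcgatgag
Birc5, chr11:117711112-117711171, plus strand: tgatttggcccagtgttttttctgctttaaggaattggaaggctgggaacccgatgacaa
Cdc20, chr4:118107356-118107415, minus strand: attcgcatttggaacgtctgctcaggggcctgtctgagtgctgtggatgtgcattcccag
Mad2l1, chr6:66488986-66489045, plus strand: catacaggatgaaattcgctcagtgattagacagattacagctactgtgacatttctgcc
Incenp, chr19:9947237-9947296, minus strand: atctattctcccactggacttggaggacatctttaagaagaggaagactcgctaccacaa

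All 10 genes had a higher normalized signal in siKrt15 than in siNeg, and 8 of them by at least 2-fold. None of the 10 was 2-fold lower. Of the 17155 genes with a measured siKrt15 to siNeg difference, 1.7% reached 2-fold upward, 2.01% downward and 3.71% either way, and 39.3% lay above 0. The median of the 10 was a log2 difference of 1.42, or 2.67-fold, where the median of all genes was −0.08. The comparison with mock uses the same siKrt15 array. There 8 of the 10 again reached 2-fold upward and all 10 lay above 0, with a median of 1.64, where 2.19% of 17165 genes reached 2-fold upward, 1.25% downward and 3.44% either way, and 41.9% lay above 0. These 8 genes were at least 2-fold higher than both controls, a background of 1.49% of 16950 genes. The genes were proposed with these results known, so the counts describe the arrays and are not independent evidence. A difference here is the log2 processed signal less each array's 75th percentile, averaged over probes well above background on both arrays, and its error is the mean of the SDs that the error model of the scanner software gives for those probes, about 0.20 for any bright probe, which holds no spread between cultures. In these bulk samples a larger share of dividing cells and more transcript per dividing cell cannot be told apart.

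**Figure D2:**
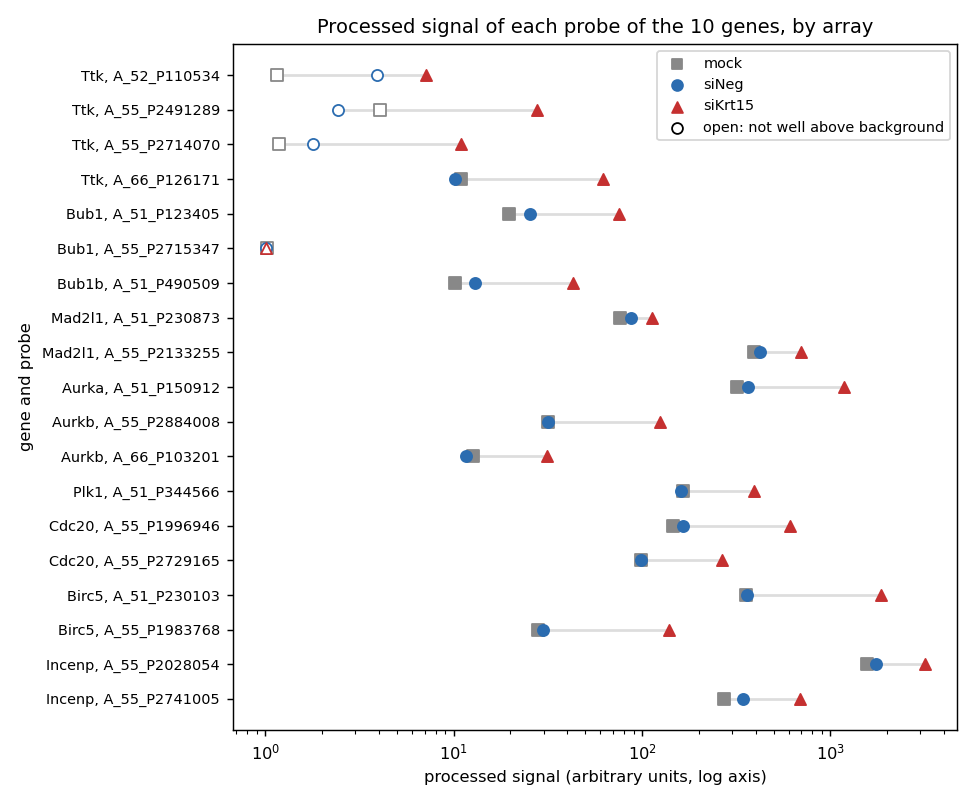
Processed signal (arbitrary units, log axis) of each of the 19 probes on the mock (squares), siNeg (circles) and siKrt15 (triangles) arrays, with open symbols where a probe was not well above background. The siKrt15 triangle lies to the right of both controls for 18 probes, the exception being the Bub1 probe never above background; levels of different probes are not comparable.

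Ttk, the kinase at the head of the checkpoint, had the largest difference of the 10 as scaled here. With normexp background correction it was 0.63, and Birc5, Aurka, Cdc20, Plk1 and Incenp were above it. Its probe at chromosome 9, 83765807 to 83765866 on mm9 gave a processed signal of 10.9 in mock, 10.1 in siNeg and 61.8 in siKrt15. The controls were within the error of each other and siKrt15 stood well above both, at 2.35 ± 0.25 (error-model SD) over siNeg, or 5.10-fold, and 2.32 ± 0.24 over mock. That difference ranked 11 of the 17155 genes. The other 3 Ttk probes were above background in siKrt15 alone, so they give only lower bounds: the control was taken at the dimmest signal that counted as well above background on its array, or at the probe's own signal if that was larger. The probe shown above, at 4.07 in mock, 2.42 in siNeg and 27.5 in siKrt15, was at least 5.12-fold higher than in siNeg. Over mock it was at least 5.34-fold higher. Of the other two, one went from 1.18 in mock and 1.79 in siNeg to 10.96 in siKrt15, at least 2.04-fold over siNeg. The last went from 1.15 and 3.93 to 7.13, at least 1.33-fold over siNeg.

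Bub1, a kinase that docks on kinetochores and marks the centromere for the passenger complex, had a signal of 19.7 in mock, 25.3 in siNeg and 74.96 in siKrt15 on its measured probe. It was higher in siKrt15 than in siNeg by 1.31 ± 0.21 and than in mock by 1.75 ± 0.22. Averaged with its second probe, which was never above background, Bub1 was short of 2-fold, at 0.53 against siNeg. Bub1b, a pseudokinase of the mitotic checkpoint complex, had 10.2, 12.96 and 43.1 in the same order, and differences of 1.47 ± 0.24 and 1.90 ± 0.25. These 2 genes also had the highest siNeg to mock differences of the 10, 0.44 ± 0.23 for Bub1 and 0.43 ± 0.28 for Bub1b. Mock was thus the lowest array for both, and the differences against mock are the larger ones.

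Mad2l1, the checkpoint protein that captures Cdc20, stood apart as the gene with the smallest difference. One probe gave 393 in mock, 424 in siNeg and 697 in siKrt15, and the probe shown above gave 76.1, 87.1 and 112.6. After scaling, the siKrt15 to siNeg differences of these probes were 0.46 ± 0.20 and 0.11 ± 0.20, and their mean of 0.28 (1.22-fold) ranked 2289 of 17155. Against mock the mean was 0.52 ± 0.20. The step from mock to siNeg, 0.24 ± 0.20, was nearly as large as that from siNeg to siKrt15.

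Mad1l1, the kinetochore protein on which Mad2 is activated, went the other way. One probe had a signal of 2651 in mock, 2232 in siNeg and 1131 in siKrt15. A second probe, whose position overlaps it on chromosome 5, gave 1659, 1481 and 773. The controls were close together and siKrt15 was below both, by −1.22 ± 0.20 against siNeg (2.33-fold) and −1.34 against mock, with probes at −1.20 and −1.24 against siNeg. Over the other settings the siNeg value ran from −1.26 to −0.87, short of 2-fold at the latter, with spike-in scaling. Bub3, which carries Bub1 and Bub1b to kinetochores, had signals of 5980, 5389 and 6969, and a difference of 0.11 ± 0.20, inside the error.

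Cdc20, which the checkpoint inhibits and which activates the anaphase-promoting complex, had a signal of 147 in mock, 164 in siNeg and 613 in siKrt15 on one probe, and 98.2, 98.8 and 264.5 on the other. Both probes placed siKrt15 above both controls, with siKrt15 to siNeg differences of 1.64 ± 0.20 and 1.16 ± 0.20. Their mean was 1.40, or 2.64-fold, and 1.57 against mock.

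Of the kinases of mitotic entry and spindle assembly, Aurka, which acts at centrosomes and spindle poles, had a signal of 321 in mock, 366 in siNeg and 1185 in siKrt15. The difference was 1.43 ± 0.20 against siNeg (2.70-fold) and 1.71 ± 0.20 against mock. Plk1, the polo kinase needed from mitotic entry to cytokinesis, had 166, 161 and 394, with the controls nearly equal. It lay just past the 2-fold threshold, at 1.03 ± 0.20 against siNeg (2.04-fold) and 1.07 ± 0.20 against mock, so the error covers both sides of the threshold. With the 75th percentile taken over spots it was 0.99 against siNeg, and with normexp background correction 0.81. Each of these 2 genes rests on 1 probe.

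The 3 passenger complex genes differed among themselves. Birc5, the subunit that brings the complex to centromeres, had 355 in mock, 360 in siNeg and 1854 in siKrt15 on one probe and 27.9, 29.8 and 139 on the other. Its probes gave 2.10 ± 0.20 and 1.97 ± 0.21 against siNeg and their mean was 2.04, or 4.10-fold. Against mock it was 2.18 ± 0.21, and it ranked 28 of 17155 against siNeg. Aurkb, the kinase of the complex, was dim in the controls, with 31.7 in both mock and siNeg and 124 in siKrt15 on one probe and 12.6, 11.6 and 31.3 on the other. Its differences were 1.71 ± 0.21 and 1.18 ± 0.24 against siNeg, with a mean of 1.44, and 1.46 against mock. Incenp, the scaffold, was at 1558, 1734 and 3157 on one probe and 273, 343 and 687 on the other. It was the other gene short of 2-fold, at 0.67 ± 0.20 against siNeg (1.59-fold), and against mock it lay just under the threshold at 0.997 ± 0.20. Spike-in scaling put Incenp at 1.02 against siNeg and 1.16 against mock. Borealin (Cdca8), the remaining subunit, was higher by 1.53 ± 0.21 and 1.70, with probes at 1.65 and 1.42 against siNeg.

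**Figure D3:**
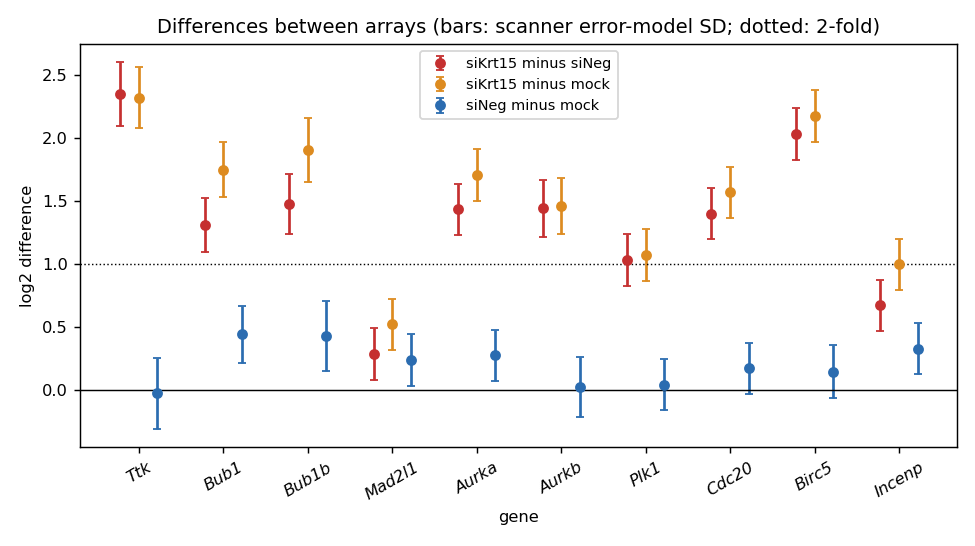
Log2 difference of each of the 10 genes for siKrt15 minus siNeg, siKrt15 minus mock and siNeg minus mock, with bars for the SD of the scanner's error model and a dotted line at 2-fold. In 8 genes both siKrt15 comparisons lie above the line, from 1.03 for Plk1 to 2.35 for Ttk, while Mad2l1 and Incenp lie below it; siNeg minus mock stays between −0.03 and 0.44.

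Between the 2 controls these genes were less than 2-fold apart, and most lay slightly higher in siNeg. In siNeg against mock 0 of the 10 were 2-fold apart, where 0.355% of 17451 genes reached 2-fold upward, 0.0458% downward and 0.401% either way. With shares this low, a count of 0 does not set the 10 apart. The median of the 10 was 0.20, where that of all genes was 0.02. Of the 10, 9 lay above 0, against 55.5% of all genes, and Ttk was at −0.03. The highest, Bub1 at 0.441, lay above the 95th percentile of all genes, 0.434. With spike-in scaling Aurkb, Plk1, Cdc20 and Birc5 turned to −0.17, −0.15, −0.02 and −0.05 and the median of all genes shifted from 0.02 to −0.16. Bub1, Bub1b, Mad2l1, Aurka and Incenp were above 0 in every setting run.

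**Figure D4:**
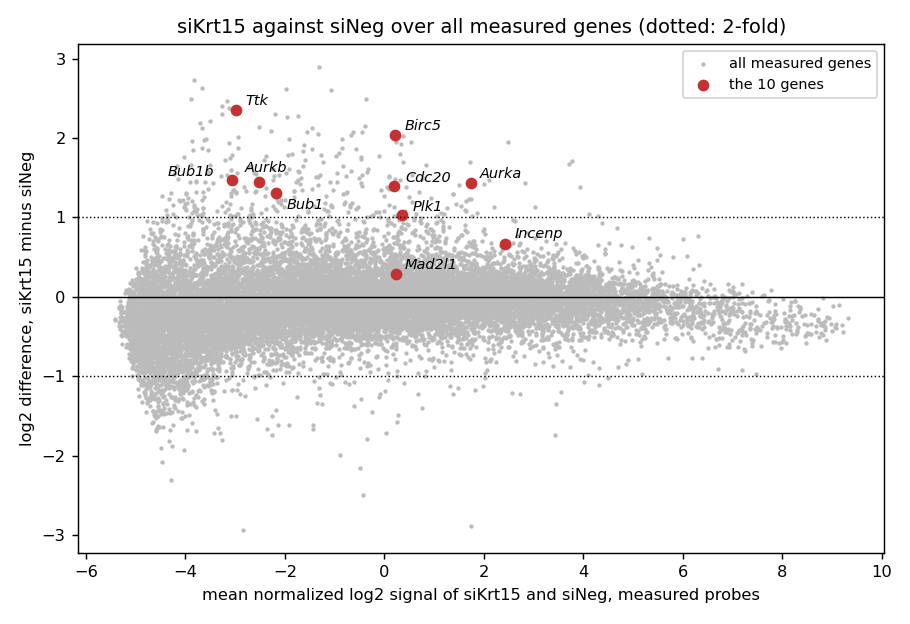
Each grey point is 1 of 17155 measured genes, placed by its mean normalized log2 signal on siKrt15 and siNeg (horizontal) and its siKrt15 minus siNeg log2 difference (vertical), with dotted lines at 2-fold. The spread widens toward dim genes, where Ttk, Bub1b, Aurkb and Bub1 lie; Birc5 (2.04), Aurka (1.43), Cdc20 (1.40) and Plk1 (1.03) lie further right.

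The sizes for Ttk, Bub1, Bub1b and Aurkb moved most with the background correction. With normexp correction, which adds an offset of 50 to every signal and so brings dim signals together, Ttk was at 0.63 against siNeg, Bub1 at 0.45, Bub1b at 0.32 and Aurkb at 0.48, while Aurka (1.38), Birc5 (1.44) and Cdc20 (1.12) kept at least 2-fold. Under that correction 3 of 10 were at least 2-fold higher, against 0.478% of all genes, and against mock also 3 of 10, against 0.594%. All 10 stayed above 0 in both siKrt15 comparisons under each setting that gave a value.

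The other genes of the pathway were taken from 6 lists, and all their genes were measured. For each list, the background against siNeg was 1.7% of all genes upward and 2.01% downward. In the list of checkpoint and kinetochore genes, 7 of 17 reached 2-fold upward in siKrt15 over siNeg and 1 downward, with a median of 0.85. The 7 were led by Nuf2 of the microtubule-binding Ndc80 complex (2.28 ± 0.21), Kntc1 of the dynein-recruiting RZZ complex (2.13 ± 0.21), the Bub1 platform Knl1 (1.87 ± 0.23) and Trip13, the ATPase that remodels Mad2 (1.80 ± 0.20). The lower gene was Mad1l1. In the chromosomal passenger and cohesin protection list these counts were 6 of 11 and 0, with a median of 1.504. Beside Cdca8 and Kif20a (1.504) they were the cohesin regulator Cdca5 (1.94), shugoshin (Sgo1, 1.78), the kinesin Kif20b (1.61) and the histone kinase Haspin (1.60).

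The list of 13 activators, scaffolds and partners of Aurora A and Plk1, called activators below, holds genes of other roles too. Of the 13, 4 reached 2-fold upward and 0 downward, and the median was 0.57. These were the kinase Pbk (2.31), Aunip (2.26), the cytokinesis factor Ect2 (1.35) and the spindle protein Tacc3 (1.05). The other 9 lay between 0.04 (Ckap5) and 0.64 (Tpx2), with Bora at 0.48. All 13 lay above 0, against 39.3% of all genes, but some, such as Ckap5 and Pak1 (0.12), were within the error. Under at least 1 other setting Pak1 (lowest value −0.79) and Ckap5 (−0.04) were below 0. The 5 of 17 mitotic entry kinases and phosphatases past 2-fold were the cyclins Ccnb2 (2.03) and Ccnb1 (1.56), the centrosomal kinase Nek2 (1.65), Cdk1 (1.53) and the phosphatase Cdc25c (1.45), and the list median was 0.22.

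Of the anaphase-promoting complex and its exit factors, 2 of 20 were at least 2-fold higher, against 1.7% of all genes. These were the ubiquitin-conjugating enzyme Ube2c (1.42) and separase (Espl1, 1.40). The other 18, most of them core subunits, lay between −0.31 (Anapc5) and 0.33 (Anapc4), and the median was 0.11. The last list held 17 relatives of these genes by family, taken as lying outside checkpoint and mitotic kinase control, although Nek6, Nek7 and Nek9 are known for roles in mitosis. Of the 17, 0 were 2-fold either way against siNeg, where 3.71% of all genes were, and the median was −0.01. With so low a share, a count of 0 does not set this list apart from all genes. The polo kinases Plk2 and Plk3 were at −0.01 and −0.52, Plk5 was at −0.73 ± 0.31, Aurkc at −0.17 (its probes 0.12 and −0.46), the kinase Nek6 at 0.68 (1.03 with spike-in scaling) and the inhibitor of apoptosis Birc6 at −0.62, whose 4 measured probes ran from −1.38 to −0.22. Over all genes the split at 2-fold depended on the processing: of the genes past 2-fold against siNeg 45.9% were higher, and 78.1% with normexp, 72.5% with quantile normalization and 88.6% with spike-in scaling. The share fell to 40.7% with the 75th percentile taken over spots and 18.8% with no filter on dim probes.

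**Figure D5:**
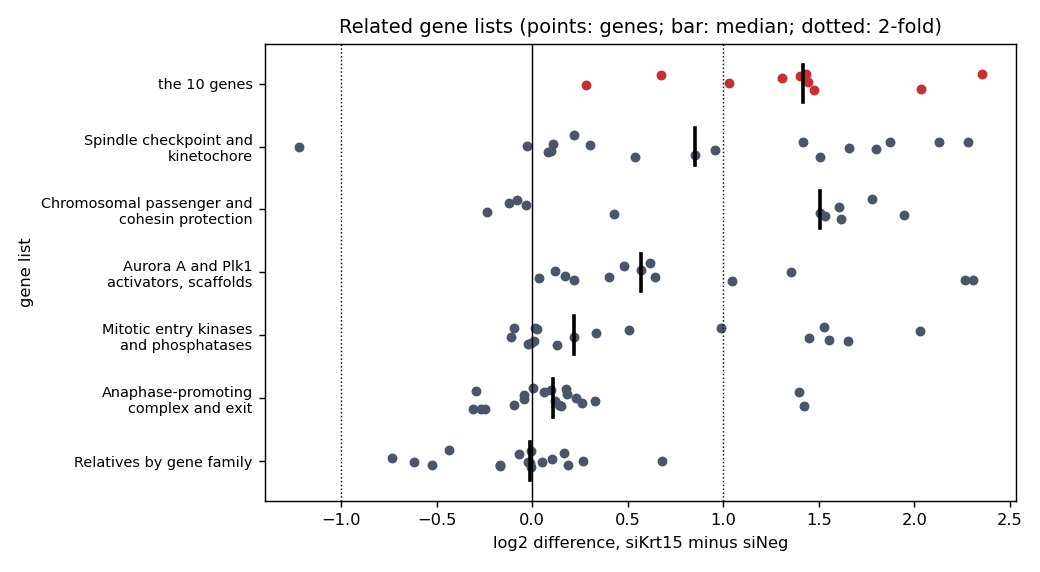
Each point is the siKrt15 minus siNeg log2 difference of 1 gene of the 10 or of a related list, black bars are list medians and dotted lines mark 2-fold. The median falls from 1.504 for the passenger and cohesin list and 0.85 for the checkpoint list to 0.11 for the anaphase-promoting complex and −0.01 for the relatives; the single point left of −1 is Mad1l1.

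The list counts also moved with the processing. With normexp the genes at 2-fold upward over siNeg were 5 of 17 in the checkpoint list, 3 of 11 in the passenger and cohesin list, 1 of 13 activators, 2 of 17 entry genes and 1 of 20 anaphase-promoting complex genes. The background with normexp was 0.478% of all genes. With the stricter filter on dim probes the checkpoint list kept 12 measured genes, 4 of them at 2-fold, and the entry list 14, with 3. Under that filter 1.32% of all genes reached 2-fold upward. Among the genes named above as past 2-fold, Haspin (lowest value over the settings 0.40), Nek2 (0.43), Knl1 (0.53), Ccnb1 (0.62), Sgo1 (0.64), Cdc25c (0.68), Ect2 (0.70), Kif20b (0.71), Kif20a (0.82), Tacc3 (0.87), Kntc1 (0.93), Espl1 (0.97), Pbk (0.98) and Cdca8 (0.99) were short of it under at least 1 other setting. Over the other settings the siKrt15 to siNeg median of the checkpoint list ran from 0.26 to 1.20, that of the passenger and cohesin list from 0.40 to 1.85, that of the activators from 0.29 to 0.92, that of the entry genes from 0.08 to 0.56, that of the anaphase-promoting complex from 0.06 to 0.45, and that of the relatives from −0.05 to 0.34, above 0 with quantile normalization, spike-in scaling, the signal trend removed and the stricter filter on dim probes. Against mock, with the siKrt15 array shared, 2.19% of all genes reached 2-fold upward and 1.25% downward. The list counts upward were 10 of 17 checkpoint and kinetochore genes, 6 of 11 passenger and cohesin genes, 4 of 13 activators, 5 of 17 entry genes and 2 of 20 anaphase-promoting complex genes. With normexp these counts were 5, 3, 1, 2 and 2, against 0.594% of all genes. Of the relatives, as scaled here, 0 reached 2-fold upward against mock and 1 downward, Birc3 at −1.08, named after its value was seen. Birc3 was measured on 1 of 4 probes, and was at −0.91 for siNeg against mock and −0.17 for siKrt15 against siNeg. No relative was 2-fold downward against mock with normexp, quantile normalization, spike-in scaling, the signal trend removed or the stricter filter. In siNeg against mock 0 genes of the 6 lists were at 2-fold as scaled here, where 0.401% of all genes were. With quantile normalization, and with spike-in scaling, 1 relative was 2-fold lower.

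The genes outside the 10 whose pattern over the 3 arrays was nearest to their median (0.20 for siNeg minus mock and 1.42 for siKrt15 minus siNeg) were, by Euclidean distance over 16950 genes, Krt8 (0.22 and 1.43), Top2a (0.20 and 1.45), Cdc25c (0.20 and 1.45), Ube2c (0.16 and 1.42) and Tcf19 (0.18 and 1.37). Krt8 is a simple epithelial keratin and Top2a a topoisomerase that untangles sister chromatids. Likeness over 3 arrays is a description of these arrays.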

How the data were processed

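Total RNA of 3 samples was made into Cy3-labelled cRNA, 1 Agilent array each, per the labels. The deposited scanner files hold an intensity per spot on a linear scale, made with Agilent Feature Extraction 11.5.1.1 per the submitters' processing notes; coordinates are on mm9 per the file headers. The authors also deposited a value table on a log2 scale, whose scale and direction are unstated; set against the scanner files it followed the log2 processed signal less a constant near the 75th percentile (Pearson r 1.00 on each array, column medians −3.52, −3.51 and −3.72 for mock, siNeg and siKrt15).

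Non-control spots without outlier flags were averaged per probe on the log2 scale, and each array's 75th percentile over 56598 probes (processed signal 191, 180 and 216) was subtracted. Gene names came from RefSeq (GRCm38.p6): 33898 probes were named by accession, 9458 by symbol, 488 by synonym, and 12754 unmatched and left out of gene counts. A probe entered a comparison where both arrays had it well above background with no saturation, and a gene was the mean of its measured probes. Calls are at 2-fold. As alternatives, the 75th percentile was taken over spots or over probes above background on all arrays. Further alternatives were normexp (limma 3.58.1, offset 50), quantile and spike-in scaling, removal of the signal trend, other filters, the brightest probe, the value table and 1.5-fold. The steps were tested on simulated data. The genes and lists were chosen with earlier results of these data known. Genes outside the 10 were named by rule: Krt15, the 4 largest siKrt15 to siNeg differences per list, Bub3, Mad1l1, Cdca8, Aurkc, Plk2, Plk3, and the 5 nearest in pattern. Anapc4 and Anapc5 fall under that rule, and Cdc25c, the fifth of its list to pass 2-fold, under the last part. Kif20a, Birc3, Tpx2, Bora, Pak1, Ckap5 and the marker genes given with differences were named after their values were seen. The summed level of the dental epithelial markers is not reported here. The number of arrays limits the precision.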

Additional observations from a re-analysis of the deposited data

How the results depend on the processing

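Under each of 10 other settings that gave a value, all 10 genes kept a positive siKrt15 to siNeg and siKrt15 to mock difference, but counts and medians moved. With normexp 3 genes were at least 2-fold higher against siNeg (median 0.65) and 3 against mock (median 0.77). With the stricter filter, which asks for a signal of at least 10 times the lowest one well above background, 6 genes were left and 4 were at least 2-fold higher in each comparison, where 1.32% of 11819 genes were against siNeg and 1.71% of 11852 against mock, with a median of 1.32 for the 6 against mock. Spike-in scaling gave a median of 1.76 against siNeg and shifted the median of all genes from −0.08 to 0.27, so that relative to all genes it was 1.497 in both. Of all genes past 2-fold against siNeg, 292 were higher and 344 lower, and 690 and 89 with spike-in scaling, 82 and 23 with normexp, 385 and 146 with quantile normalization, 389 and 144 with the signal trend removed, 480 and 2075 with no filter, and 156 and 48 with the stricter one. In siNeg against mock the count for the 10 genes was 0 under every setting. Of the counts and medians recomputed, siNeg against mock included, 55 stayed within 1.5 times (counts) or 1 error-model SD (medians) and 8 did not. The 55 include the siNeg to mock counts, which were 0 throughout and so could only be scored as staying. No paired analysis was possible because each group has 1 array. Leaving out an array was not possible for the same reason. For signals near background, as for Ttk and Bub1b in the controls, the size of a difference is the least certain.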
